A study of Arabidopsis thaliana with 8 samples.

Results

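The cysteine-rich receptor-like kinases (CRKs) of Arabidopsis thaliana are described here in rosettes of the H2A.Z double mutant hta9 hta11 and of wild-type plants. The family was taken as 41 loci by their identifiers, CRK1 to CRK42 without CRK35, out of 36796 gene identifiers in the count table. Of these loci, 20 stand next to each other in a tandem array on chromosome 4 that runs from CRK5 (AT4G23130) to CRK24 (AT4G23320). The other 21 are called dispersed here, although some form smaller clusters. All 41 loci were found in the table, 2 of them without a count in any library.

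The 8 RNA-seq libraries were made from poly(A) RNA of Col-0 rosettes, 4 from hta9 hta11 and 4 from the wild type. Plants of both genotypes were 17 days old, had not bolted, received no treatment named in the labels, and were pooled by 5 for each library. The labels do not name the alleles of hta9 hta11. The mutated genes, HTA9 and HTA11, code for the histone variant H2A.Z, which is often found beside the start sites of genes. The comparison addresses transcript levels in plants with these mutations. As each library holds different plants, the replicate spread covers differences among pools.

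A CRK is a membrane protein with an extracellular part of DUF26 domains, which carry conserved cysteines, a transmembrane helix and an intracellular serine/threonine kinase domain. Members of the family are known in leaves for roles in responses to pathogens, to salicylic acid and to reactive oxygen species, and forced expression of several of them triggers cell death. Many arose by tandem duplication, and close copies often lie side by side.

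Library totals ran from 31611735 to 47467130 counts, and the CRK loci together took 0.0594% to 0.0787% of the counts of a library. HTA9 was at 60.6, 14.8, 33.4 and 16.5 CPM in hta9 hta11 libraries 1 to 4, against 86.0 to 103.9 CPM in the wild type. HTA11 was at 26.0, 2.98, 14.1 and 3.60 CPM in hta9 hta11 libraries 1 to 4, against 38.5 to 54.1 CPM in the wild type. All mutant libraries lay below all wild-type libraries for both genes, HTA9 fell (log2 fold change -1.60, adjusted p = 0.0457 in the edgeR test described below) and HTA11 did not pass (log2 fold change -1.93, adjusted p = 0.0924). CPM is the depth-scaled count of a gene, here computed on TMM-scaled library totals. The mutant libraries therefore held unequal amounts of the targeted transcripts, with libraries 1 and 3 above libraries 2 and 4 for both genes. In keeping with the rosette label, 4 leaf markers summed to 38030 to 44750 CPM in hta9 hta11 and 41690 to 50960 CPM in the wild type. The root hair genes EXPA7 and COBL9 did not exceed 0.124 CPM in any library. Of the other root markers, PYK10 was at 60.6 to 94.7 CPM in hta9 hta11 and 69.6 to 115.8 CPM in the wild type. SCR was at 27.3 to 37.2 CPM in hta9 hta11 and 27.7 to 33.2 CPM in the wild type. WOX5 did not exceed 0.753 CPM in any library. The 5 root markers summed to 98.2 to 126.8 CPM in hta9 hta11 and 98.7 to 149.4 CPM in the wild type. PYK10, SCR and WOX5 were the 3 tested, and neither edgeR, DESeq2 nor limma-voom called any of them. Their unadjusted p-values in edgeR were all above 0.05. The 5 flower markers AP1, AP3, PI, AG and SEP3 summed to 7.13 to 14.8 CPM in hta9 hta11 and 2.61 to 3.09 CPM in the wild type. Of the 5, 4 rose (80%, beside 2.49% of all tested genes called higher). AG had a negative log2 fold change of -0.49 that did not pass (adjusted p = 0.301). In whole rosettes a change in the number of cells of a type and a change in RNA per cell cannot be told apart. The part of the flower transcripts in the CRK values was not tested.

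In hta9 hta11 rosettes 3 CRK genes rose and 2 fell, and the tested members of the family were split in direction. CRK23, barely detected in the wild type, rose 8.64-fold, and CRK21 and CRK29 rose 1.46-fold and 1.36-fold. CRK9 and CRK10, neighbours in the array and the most abundant members for their length, fell to 0.635 and 0.656 of the wild-type level in the fit. Genotype was tested with edgeR's quasi-likelihood F test and Benjamini-Hochberg adjustment over all 20214 genes tested, 2-sided, at an adjusted p under 0.05, and adjusted p-values below come from it. Log2 fold changes are hta9 hta11 over wild type.

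Of the 41 loci, 35 had enough counts to be tested. The 5 called members are 14.3% of these, beside 3.74% of all tested genes called, 2.49% upward and 1.25% downward. The family and the gene lists were chosen with earlier results of these data known. A share above that of all genes is therefore no independent support. The filter keeps a gene that is well covered in either genotype, so the tested members are not a sample of the whole family. Of the tested members 21 had a positive and 14 a negative log2 fold change, while 49.7% of all tested genes had a positive value. The median log2 fold change was 0.197 over the tested members and -0.00137 over all tested genes.

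In the array, 19 loci were tested, of which CRK21 and CRK23 rose and CRK9 and CRK10 fell (21.1% called), with a median log2 fold change of 0.0127. Among the 16 dispersed loci tested, CRK29 rose and 0 fell in edgeR (6.25% called), with a median log2 fold change of 0.353. The difference between these shares was not tested, since members are not replicates. At an unadjusted p under 0.05 in edgeR, 4 of the dispersed loci were higher and 3 lower, beside 9.58% of all tested genes higher and 8.46% lower. DESeq2 called 4 of the dispersed loci higher and 1 lower, and limma-voom called 1 higher and 0 lower. Over all genes, DESeq2 called 1505 of 26798, 861 of them higher, and limma-voom called 726 of 20214, 458 of them higher. The dispersed median was 0.134 when genes had to reach 1 CPM in 4 or more libraries, 0.193 with no count filter, 0.190 with DESeq2 and 0.0496 without hta9 hta11 library 2, the library in which 19 of the 35 tested members were at their highest among mutant libraries.

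**Figure D1:**
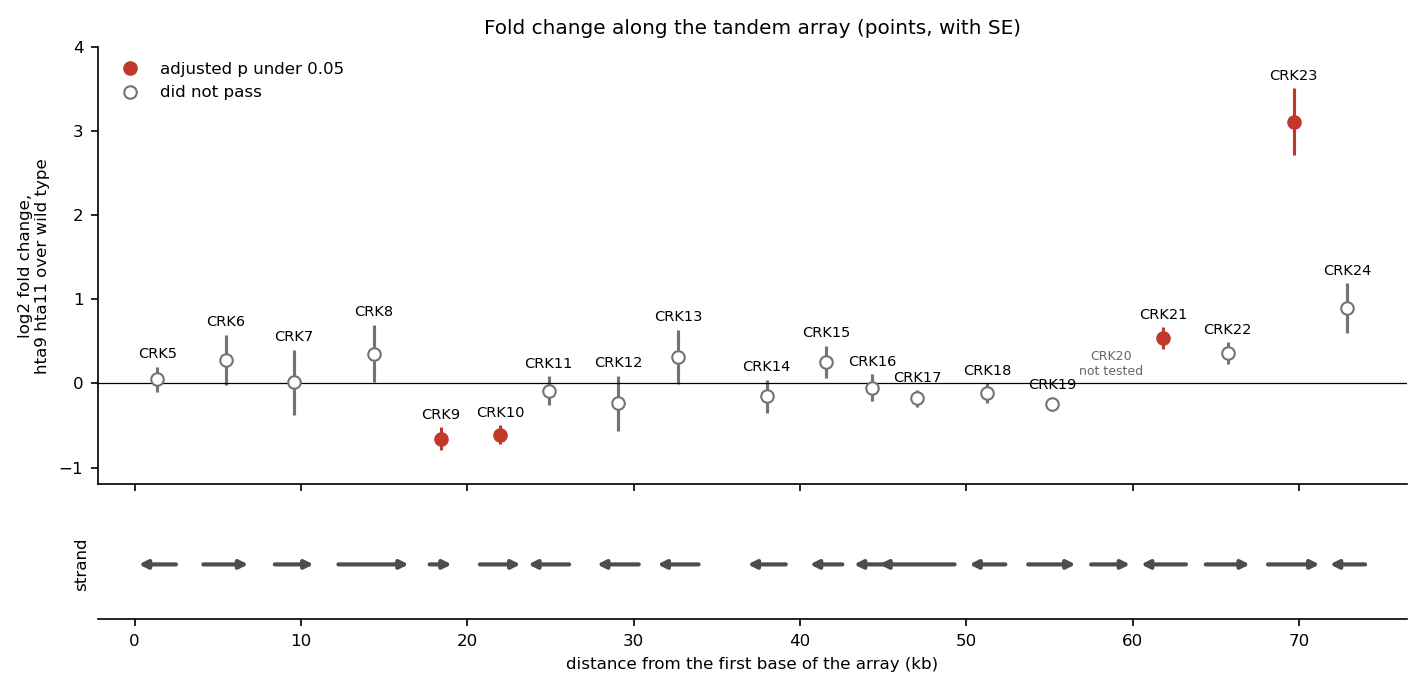
Log2 fold change of hta9 hta11 over wild type (vertical axis, points with SE) for the array members by distance in kb from the first base of the array (horizontal axis), with arrows for each gene's extent and strand. Of the filled points, which passed the test, CRK9 and CRK10 lie side by side below 0, and CRK21 and CRK23 (at 3.11) lie above 0 at the right end, as do the open points of CRK22 and CRK24.

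The array spans 74.2 kb of chromosome 4, from 12117491 to 12191704 on TAIR10.1, with 9 genes on the plus and 11 on the minus strand. At its end beyond CRK20, the last 4 genes were all higher in hta9 hta11 in the fit, and CRK23 and CRK21 passed. The border of this stretch was drawn with earlier results of these data known. Being all higher does not set it apart, as the 4 genes CRK5 to CRK8 also had positive log2 fold changes. Of all tested genes 49.7% had a positive value. CRK23 (AT4G23310, chromosome 4, 12185369 to 12188961, plus strand) had 2.98, 10.3, 4.25 and 5.27 CPM in hta9 hta11 libraries 1 to 4, against 0.710, 0.847, 0.566 and 0.480 CPM in wild-type libraries 1 to 4. Every mutant library lay well above every wild-type library, and the mutant libraries differed among themselves. These levels rest on 890 counts in the mutant libraries together and 96 in the wild type. The means were 5.71 ± 3.23 CPM in hta9 hta11 and 0.651 ± 0.161 CPM in the wild type (SD, n = 4 each), a log2 fold change of 3.11 (adjusted p = 0.00374, SE 0.40), which ranked 29 among all tested genes by size of the rise. Exact copies elsewhere in the genome covered 1.88% of the 50-base windows of its exons and 0% of the 100-base windows.

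Among the mutant libraries, CRK23 was highest in library 2, followed by libraries 4, 3 and 1. HTA9 ran the other way in these libraries, at 14.8, 16.5, 33.4 and 60.6 CPM in libraries 2, 4, 3 and 1. The sum of the flower markers was 14.8, 13.15, 7.13 and 8.89 CPM in libraries 2, 4, 3 and 1. Library 1 of hta9 hta11 also held the highest mutant values of all 4 leaf markers and of all 14 rapid stress markers described below. None of these relations was tested. CRK23 passed in every fit that left out a single library, with log2 fold changes of 2.65 (without hta9 hta11 library 2) to 3.33 (without hta9 hta11 library 1).

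CRK21 (AT4G23290, 12177734 to 12180936, minus strand) had 16.3, 23.4, 21.1 and 18.6 CPM in hta9 hta11 libraries 1 to 4, against 12.1, 16.1, 12.6 and 13.6 CPM in the wild-type libraries. The groups did not overlap, but mutant library 1 and wild-type library 2 were almost level. Its means were 19.8 ± 3.08 CPM in hta9 hta11 and 13.6 ± 1.80 CPM in the wild type (SD, n = 4 each), with a log2 fold change of 0.54 (adjusted p = 0.0467, SE 0.13). The call sat near the threshold and held without hta9 hta11 library 1 or wild-type library 2, but not without any of the other 6 libraries (the adjusted p was highest without hta9 hta11 library 2, at 0.133).

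CRK22 and CRK24, on either side of CRK23, did not pass. CRK22 (AT4G23300) had 17.98, 23.9, 24.5 and 24.3 CPM in hta9 hta11 libraries 1 to 4, against 14.4, 20.3, 16.9 and 18.8 CPM in the wild-type libraries, a log2 fold change of 0.36 (adjusted p = 0.169, SE 0.13). Mutant library 1 stood below the other mutant libraries and inside the wild-type range, and without it CRK22 passed (adjusted p = 0.0432). Leaving out the library nearest the other genotype favours a call. CRK22 passed in only this 1 of the single-library fits, among which the adjusted p reached 0.389. CRK22 shares 16.15% of its 50-base exon windows with CRK13, so part of its count is uncertain. CRK24 (AT4G23320) had 1.46, 2.88, 1.09 and 1.72 CPM in hta9 hta11, against 0.823, 1.19, 0.781 and 1.06 CPM in the wild type, a log2 fold change of 0.89 (adjusted p = 0.14, SE 0.30). Its groups overlapped through mutant library 3, and CRK24 passed without hta9 hta11 libraries 1 and 3 together (log2 fold change 1.26, adjusted p = 0.0416). These were its lowest mutant libraries, and CRK24 passed in 0 of the single-library fits (adjusted p of 0.0847 to 0.354). CRK20, known for cell death on forced expression, was below the count filter, with 59 counts in hta9 hta11 and 22 in the wild type.

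The 2 flanking genes that could be tested did not pass, with unadjusted p-values of 0.763 and 0.151 in edgeR. The first, AT4G23330, which follows CRK24 and encodes an uncharacterized protein, was at 13.8 ± 2.05 CPM in hta9 hta11 and 14.2 ± 1.56 CPM in the wild type (SD, n = 4 each; log2 fold change -0.037, SE 0.12, adjusted p = 0.908). AT4G23340 and AT4G23350 were not tested, at 0.186 to 0.621 CPM and 0 to 0.0269 CPM in hta9 hta11, against 0.142 to 0.404 CPM and 0 to 0.0320 CPM in the wild type. On the other side of the array, AT4G23110 and AT4G23120 had no count. GSH1, for the enzyme that begins glutathione synthesis, was at 289.5 ± 16.3 CPM in hta9 hta11 and 312 ± 13.7 CPM in the wild type (SD, n = 4 each; adjusted p = 0.463). Inside the array, AT4G23205 (a non-coding RNA) had 0.0538 to 0.248 CPM in hta9 hta11 and 0.108 to 0.169 CPM in the wild type, and AT4G23271 had no count.

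The genes that fell were CRK9 and CRK10, which lie head to tail on the plus strand. CRK10 (AT4G23180, 12137995 to 12140930), a salicylic acid-responsive gene first described as RLK4, had 94.4, 83.8, 110.7 and 87.4 CPM in hta9 hta11 libraries 1 to 4, against 138.6, 142.2, 167.1 and 125.6 CPM in the wild-type libraries. Every mutant library lay below every wild-type library. The means of 94.1 ± 11.9 CPM in hta9 hta11 and 143 ± 17.4 CPM in the wild type (SD, n = 4 each) gave a log2 fold change of -0.61 (adjusted p = 0.0166, SE 0.11). CRK9 (AT4G23170, 12134973 to 12136796), annotated as EP1 and as induced by salicylic acid through NPR1, had 54.4, 35.4, 48.3 and 39.1 CPM in hta9 hta11, against 71.9, 62.8, 80.3 and 64.2 CPM in the wild type. Again the groups did not overlap, and the log2 fold change was -0.65 (SE 0.14, adjusted p = 0.0302), between means of 44.3 ± 8.65 CPM in hta9 hta11 and 69.8 ± 8.09 CPM in the wild type (SD, n = 4 each). The annotated coding length of CRK9 is 798 bases, the shortest in the family, where CRK24 comes next with 1587 bases. Whether CRK9 codes for all the domains of a CRK, the kinase domain among them, was not examined. The CRK10 call ended without hta9 hta11 library 2 or 4 and the CRK9 call also without wild-type library 1 or 3, with adjusted p-values of up to 0.0732 and 0.109, both without hta9 hta11 library 4.

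The array summed to 336 to 384 CPM in hta9 hta11 and 395 to 501 CPM in the wild type, and the genotypes did not overlap. CRK9 and CRK10 made up 37.6% of the array's sum in hta9 hta11 and 48.7% in the wild type. As a description with no test, since CRK9 and CRK10 are set aside here for their fall, the other 18 array loci summed to 229 ± 24.8 CPM in hta9 hta11 and 225 ± 25.6 CPM in the wild type (SD, n = 4 each). The dispersed loci summed to 268.5 ± 16.5 CPM in hta9 hta11 and 287 ± 16.7 CPM in the wild type, and their groups overlapped.

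The remaining array members did not pass in edgeR, and DESeq2 called CRK19 among them. At the start of the array, CRK5 to CRK8 had log2 fold changes of 0.013 to 0.36 with SE of up to 0.39. CRK5, CRK6 and CRK11 are known, with CRK10, as genes induced by pathogens and salicylic acid. CRK6 was at 16.0, 22.3, 8.62 and 9.85 CPM in hta9 hta11 libraries 1 to 4, against 8.23, 12.6, 16.5 and 9.54 CPM in the wild-type libraries (log2 fold change 0.28, SE 0.30, adjusted p = 0.693). Mutant libraries 1 and 2 and wild-type library 3 stood high, so the spread within each genotype exceeded the difference between the means. CRK7, tied to tolerance of extracellular reactive oxygen species, spread from 1.05 to 4.52 CPM in hta9 hta11 and from 2.01 to 2.86 CPM in the wild type (log2 fold change 0.013, adjusted p = 0.992). CRK11, the neighbour of CRK10 on the other strand, was at 16.2 to 18.3 CPM in hta9 hta11 and 11.8 to 24.4 CPM in the wild type (log2 fold change -0.087, adjusted p = 0.841). CRK8 was low, at 0.697 to 1.09 CPM in hta9 hta11 and 0.224 to 0.916 CPM in the wild type, and shares 12.6% of its 50-base windows with CRK6.

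From CRK12 to CRK19 the log2 fold changes lay between -0.25 and 0.32. CRK19, which triggers cell death on forced expression, was at 35.95, 38.5, 36.2 and 35.1 CPM in hta9 hta11 libraries 1 to 4, against 38.8, 45.0, 46.3 and 42.7 CPM in the wild-type libraries. Its groups did not overlap, and the difference was small at a log2 fold change of -0.25 (adjusted p = 0.112, SE 0.076), which DESeq2 called (adjusted p = 0.0371). CRK13, whose overexpression induces salicylic acid-dependent defence, spread from 2.125 to 4.08 CPM in hta9 hta11 and from 1.22 to 3.21 CPM in the wild type (log2 fold change 0.32, SE 0.32, adjusted p = 0.666). CRK16 and CRK17 overlap on the same strand by 1190 bases, and reads from that stretch cannot be assigned to a single gene. CRK18 was at 26.3 to 36.8 CPM in hta9 hta11 and 28.4 to 37.0 CPM in the wild type (log2 fold change -0.12, adjusted p = 0.677).

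The 250 bases before the annotated start of a gene were read from TAIR10.1, whose annotation gave the position of each locus. They are shown for the called array members and for CRK11, the member with the most copies of TTGAC, the core of the W box that WRKY transcription factors bind. Capitals mark TTGAC or its reverse complement GTCAA, and each sequence is given 5′ to 3′ on the strand of its gene.
CRK23, chr4:12185119-12185368, plus strand: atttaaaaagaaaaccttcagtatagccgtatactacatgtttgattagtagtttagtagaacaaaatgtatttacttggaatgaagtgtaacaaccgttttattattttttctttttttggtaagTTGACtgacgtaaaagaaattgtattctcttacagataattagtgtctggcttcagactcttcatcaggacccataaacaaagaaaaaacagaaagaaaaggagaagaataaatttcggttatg
CRK21, chr4:12180937-12181186, minus strand: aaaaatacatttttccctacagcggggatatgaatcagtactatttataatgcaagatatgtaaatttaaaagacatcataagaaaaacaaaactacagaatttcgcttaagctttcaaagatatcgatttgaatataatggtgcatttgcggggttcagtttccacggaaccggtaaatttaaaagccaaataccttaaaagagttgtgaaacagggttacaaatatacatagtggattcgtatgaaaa
CRK10, chr4:12137745-12137994, plus strand: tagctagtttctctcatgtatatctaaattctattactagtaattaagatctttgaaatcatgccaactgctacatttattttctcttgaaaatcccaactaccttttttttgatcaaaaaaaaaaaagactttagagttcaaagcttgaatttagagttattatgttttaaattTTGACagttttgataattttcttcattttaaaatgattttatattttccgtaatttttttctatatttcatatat
CRK9, chr4:12134723-12134972, plus strand: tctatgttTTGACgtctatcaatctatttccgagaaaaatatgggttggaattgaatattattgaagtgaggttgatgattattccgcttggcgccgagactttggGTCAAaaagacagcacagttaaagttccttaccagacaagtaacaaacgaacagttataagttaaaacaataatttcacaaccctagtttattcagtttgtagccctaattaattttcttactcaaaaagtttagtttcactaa
CRK11, chr4:12143859-12144108, minus strand: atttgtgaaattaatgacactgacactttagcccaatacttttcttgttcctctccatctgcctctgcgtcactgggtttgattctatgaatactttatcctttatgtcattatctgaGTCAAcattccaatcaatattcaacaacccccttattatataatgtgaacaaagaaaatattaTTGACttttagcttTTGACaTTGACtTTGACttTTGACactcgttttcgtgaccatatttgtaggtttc

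TTGAC was found on either strand in 30 of the 41 CRK windows, which is 73.2%, and in 44.9% of the windows of 27443 protein-coding genes. A second copy was present in 17 CRK windows (41.5%), against 14.1% of all windows. The longer TTGACT, which contains TTGAC, was in 19 CRK windows (46.3%), against 19.1% of all, and TTGACC in 9 (22.0%), against 12.2% of all. Called members did not share a pattern of this motif. CRK21 had no copy, CRK10, CRK23 and CRK29 had 1 each and CRK9 had 2, while CRK11 had 6 and CRK41 had 4, and neither passed. CRK22, which is transcribed away from CRK21 on the opposite strand, had none either. The windows of all genes were not matched for base composition, and a copy of the motif does not show that a factor binds there. Windows of tandem copies may not be independent of each other. Those of CRK16 and CRK28 lie inside CRK17 and CRK29, and that of CRK24 reaches into AT4G23330.

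Among the dispersed loci, CRK28 and CRK29 lie next to each other and were both higher in the mutant in the fit. CRK29 (AT4G21410, chromosome 4, 11401711 to 11405235, minus strand) had 12.5, 12.3, 11.3 and 13.4 CPM in hta9 hta11 libraries 1 to 4, against 8.06, 9.77, 10.1 and 8.33 CPM in the wild-type libraries. The groups did not overlap, and means of 12.4 ± 0.889 CPM in hta9 hta11 and 9.07 ± 1.03 CPM in the wild type (SD, n = 4 each) gave a log2 fold change of 0.44 (adjusted p = 0.0398, SE 0.10). The call was lost in each of the 8 fits that left out a single library, with adjusted p-values of 0.0522 to 0.145. CRK28 (AT4G21400), which associates with the co-receptor BAK1 and promotes defence, had 6.10, 7.41, 5.55 and 6.08 CPM in hta9 hta11, against 3.35, 4.74, 4.96 and 3.88 CPM in the wild type. Its groups did not overlap either, and its adjusted p stayed just above the threshold in edgeR (log2 fold change 0.57, SE 0.15, adjusted p = 0.065) but not in DESeq2 (adjusted p = 0.0139). The loci share 470 bases on the same strand, so their counts are not independent, and CRK29 also overlaps AT4G03065 on that strand.

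**Figure D2:**
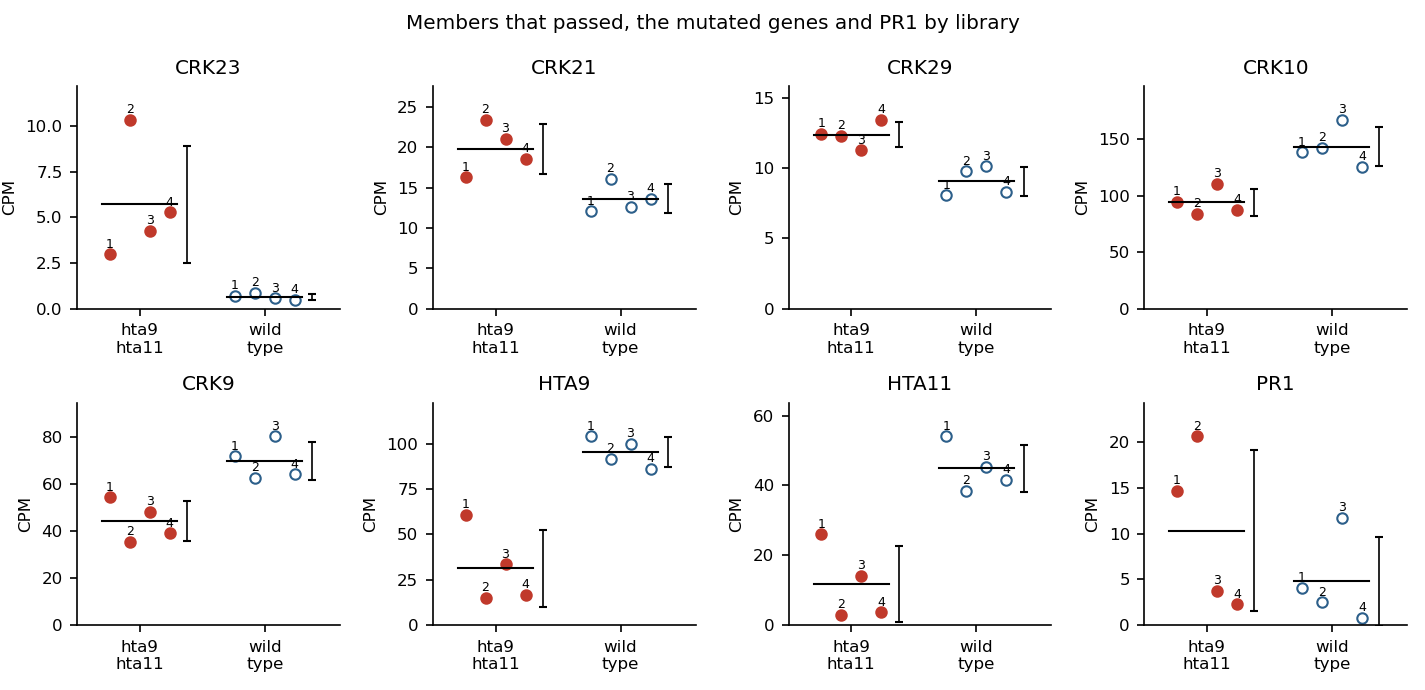
CPM of the 5 members that passed and of HTA9, HTA11 and PR1 in each library (vertical axes, linear from 0), hta9 hta11 filled and wild type open, with the library number above each point, the mean as a line and the SD as a bar (not drawn below 0). CRK23, CRK21 and CRK29 are higher and CRK10 and CRK9 lower in all 4 hta9 hta11 libraries than in any wild-type library, while PR1 overlaps and is highest in library 2 of hta9 hta11 and library 3 of the wild type.

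Libraries of the genotypes did not overlap for 6 members upward and 4 downward, beside 6.23% of all tested genes upward and 5.07% downward. The 6 were CRK21, CRK23, CRK26, CRK27, CRK28 and CRK29, and the 4 were CRK9, CRK10, CRK19 and CRK40. CRK26 had 98 counts in hta9 hta11 and 35 in the wild type. The filter admits genes that are well covered only in the genotype where they are high. The nearest libraries of CRK27 were at 0.464 CPM in hta9 hta11 and 0.460 CPM in the wild type (adjusted p = 0.481). CRK28 and CRK29 overlap on the same strand, so their counts are not independent. At an unadjusted p under 0.05, 8 members were higher and 6 lower, beside 9.58% and 8.46% of all tested genes.

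CRK30 (AT4G11460), the first gene of a small cluster, had 2.28, 6.54, 4.22 and 3.98 CPM in hta9 hta11 libraries 1 to 4, against 1.53, 2.49, 1.72 and 2.40 CPM in the wild-type libraries. Mutant library 1 lay within the wild-type range and the gene did not pass (log2 fold change 1.06, adjusted p = 0.0828, SE 0.30). CRK30 passed in DESeq2 (adjusted p = 0.0119). Among the single-library fits it passed only without mutant library 1, its lowest mutant library (adjusted p = 0.0132, against up to 0.215). In the same cluster, CRK31, which lies next to CRK30, and CRK34 were at log2 fold changes of 0.82 (SE 0.38, adjusted p = 0.293) and 0.13 (SE 0.17, adjusted p = 0.764). CRK32 had 14 counts in hta9 hta11 and 13 in the wild type, and CRK33 had none.

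CRK26 (AT4G38830), a low member, had 0.739, 0.8202, 0.341 and 0.511 CPM in hta9 hta11 libraries 1 to 4, against 0.284, 0.290, 0.162 and 0.224 CPM in the wild-type libraries. These values rest on 98 and 35 counts, and the log2 fold change of 1.33 (SE 0.34) did not pass (adjusted p = 0.0615). CRK26 passed in DESeq2 (adjusted p = 0.0391). Among the single-library fits it passed only without hta9 hta11 library 3, its lowest mutant library (adjusted p = 0.038, against up to 0.178). CRK27 was at 0.464 to 0.589 CPM in hta9 hta11 and 0.369 to 0.460 CPM in the wild type (adjusted p = 0.481). In the CRK36 to CRK40 cluster, CRK36, which interacts with the immune kinase BIK1, was at 1.178 to 3.31 CPM in hta9 hta11 and 1.36 to 2.67 CPM in the wild type (adjusted p = 0.606). CRK37 was at 0.186 to 1.168 CPM in hta9 hta11 and 0.266 to 0.647 CPM in the wild type, and CRK38 at 0.215 to 0.870 CPM in hta9 hta11 and 0.0968 to 0.539 CPM in the wild type, with log2 fold changes of 0.63 (SE 0.55) and 0.50 (SE 0.53) that did not pass.

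Among the well expressed dispersed members, CRK40, CRK2 and CRK41 had negative log2 fold changes that did not pass in edgeR. CRK40 (AT4G04570) had 79.5, 76.7, 74.5 and 69.5 CPM in hta9 hta11 libraries 1 to 4, against 87.6, 89.7, 94.7 and 92.0 CPM in the wild-type libraries. The groups did not overlap and the difference was small. The log2 fold change of -0.28 (SE 0.068) fell just short of the threshold (adjusted p = 0.0516). CRK40 passed with RLE scaling (adjusted p = 0.0469) and in DESeq2 (adjusted p = 0.00135). Among the single-library fits it passed only without hta9 hta11 library 1, its highest mutant library (adjusted p = 0.0400, against up to 0.176). CRK2 (AT1G70520), which phosphorylates the NADPH oxidase RBOHD, was at 42.1 to 50.4 CPM in hta9 hta11 and 49.8 to 57.2 CPM in the wild type (log2 fold change -0.23, SE 0.084, adjusted p = 0.173). CRK41 (AT4G00970) was at 25.2 to 32.2 CPM in hta9 hta11 and 30.3 to 44.1 CPM in the wild type (log2 fold change -0.35, SE 0.12, adjusted p = 0.144). CRK4 (AT3G45860), which triggers cell death on forced expression, had 38.6, 54.7, 29.04 and 24.5 CPM in hta9 hta11, against 28.4, 31.4, 32.2 and 36.2 CPM in the wild type, and the wild type lay within the mutant's spread (log2 fold change 0.20, SE 0.21, adjusted p = 0.691). CRK3, which lies next to CRK2, and CRK42 had log2 fold changes of -0.028 and -0.029. CRK1, CRK25 and CRK39 were not tested, with no count for CRK1, 18 and 20 counts for CRK25 and 49 and 45 counts for CRK39 in hta9 hta11 and the wild type.

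**Figure D3:**
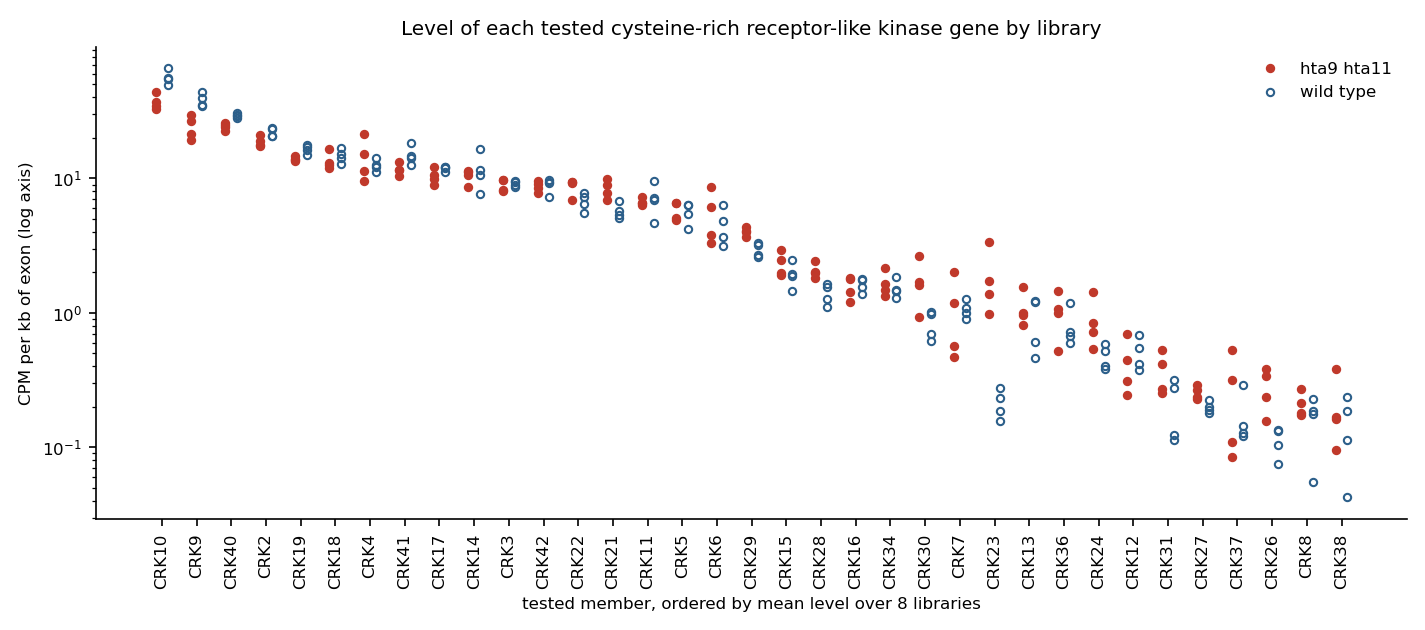
CPM per kb of exon (vertical axis, log scale) of the 35 tested members in each library, hta9 hta11 filled and left, wild type open and right, ordered by mean level. The levels run from CRK10 at 46.7 to CRK38 at 0.174 CPM per kb, and CRK23 is the member whose filled points stand farthest above its open points.

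Per kb of exon, the scale on which genes were compared, 10 members had a mean over all libraries of at least 10 CPM per kb and 16 lay below 1 CPM per kb. CRK10 had the highest level at 37.0 CPM per kb in hta9 hta11 and 56.4 CPM per kb in the wild type, followed by CRK9 at 24.3 and 38.3, CRK40 at 24.2 and 29.4, and CRK2 at 18.8 and 22.1 CPM per kb in hta9 hta11 and the wild type. CRK9 and CRK40 did not differ beyond their spread in hta9 hta11. Below these came CRK19, CRK18, CRK4 and CRK41, between 13.3 and 15.2 CPM per kb over all libraries. Of these 8 members 7 had a negative log2 fold change and CRK4 a positive one. Among the other 27 tested members 20 were positive and 7 negative. Without hta9 hta11 library 2, the positive values of CRK4, CRK5, CRK6 and CRK7 turned negative. No share of all tested genes at like levels was counted, and a relation of level and direction was not tested. CRK23 was at 1.87 CPM per kb in hta9 hta11, between CRK30 (1.72) and CRK28 (2.06), and at 0.213 CPM per kb in the wild type, beside CRK31 (0.208).

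**Figure D4:**
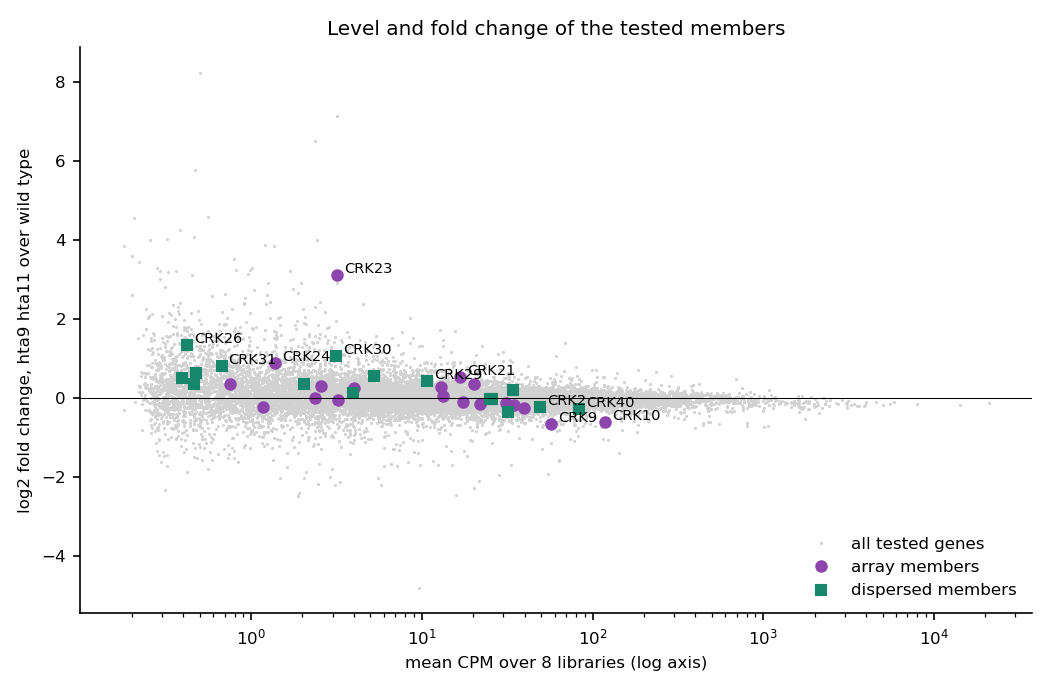
Log2 fold change of hta9 hta11 over wild type (vertical axis) by mean CPM over the 8 libraries (horizontal axis, log scale) for array members (circles), dispersed members (squares) and all 20214 tested genes (grey). Abundant members such as CRK10, CRK9, CRK40 and CRK2 lie below 0, and most members at low levels lie above it, with CRK23 at 3.11.

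CRK genes spread more between libraries of a genotype than the median tested gene, in a comparison not matched for count level. The median coefficient of variation was 18.8% in hta9 hta11 and 16.1% in the wild type over the tested members, against 10.9% and 11.7% over all tested genes. It was highest for CRK37 in the mutant, at 79.9%, and next for CRK7 at 67.3%, CRK38 at 61.9% and CRK23 at 56.5%. Many members were highest in the same library of each genotype. In hta9 hta11, 19 of 35 members (54.3%) were highest in library 2, as were 25.4% of all tested genes. In the wild type, 21 of 35 (60.0%) were highest in library 3, as were 18.7% of all tested genes.

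Levels of salicylic acid markers also differed between libraries. PR1, a pathogenesis-related gene, was at 14.7, 20.7, 3.72 and 2.26 CPM in hta9 hta11 libraries 1 to 4, against 4.09, 2.47, 11.8 and 0.801 CPM in the wild-type libraries. Of the 14 salicylic acid markers, 7 were highest in library 2 and 7 in library 1 of hta9 hta11, and 12 were highest in library 3 of the wild type. Their sum was highest in library 1 of hta9 hta11 (350.3 CPM, against 334.5 CPM in library 2) and in library 3 of the wild type. PR1 did not pass (adjusted p = 0.503). Summed over 14 salicylic acid markers, the level was 260 to 350 CPM in hta9 hta11 and 316 to 415 CPM in the wild type, with overlap, and 1 of the 14, WRKY70, fell. This is 7.14% of the list, beside 3.74% of all tested genes called. DESeq2, with 1505 of 26798 genes called, had 2 of the list lower, and limma-voom, with 726 of 20214, had 1. In edgeR, DESeq2 and limma-voom 0 of the 14 rose. At an unadjusted p under 0.05 in edgeR, 2 were higher and 3 lower, beside 9.58% of all tested genes higher and 8.46% lower. WRKY70, a transcription factor of salicylic acid signalling, was at 57.6 ± 11.01 CPM in hta9 hta11 and 103 ± 16.8 CPM in the wild type (SD, n = 4 each; log2 fold change -0.83, adjusted p = 0.0153). The 14 rapid stress markers summed to 323 to 518 CPM in hta9 hta11 and 464 to 695.5 CPM in the wild type, and 2 of them fell, TCH4 at -1.29 and WRKY33 at -0.43 on the log2 scale (adjusted p = 0.0379 and 0.0372). These are 14.3% of the list, which was chosen with earlier results known, beside 3.74% of all tested genes called. In edgeR 0 of the list were higher and 5 lower at an unadjusted p under 0.05. Over all tested genes these shares were 9.58% and 8.46%. All 14 rapid stress markers were highest in library 1 of hta9 hta11. In the wild type 8 were highest in library 1, 5 in library 3 and 1 in library 4. The part of these library states in the CRK values was not tested.

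Known partners of receptor kinases in immune signalling were counted in a list of 15, chosen with earlier results of these data known. Of these 15 genes for immune receptors, their kinases and NADPH oxidases, MPK3 and RBOHD fell in edgeR (13.3%, beside 3.74% of all tested genes called). DESeq2, with 1505 of 26798 genes called, had 4 of the list lower, and limma-voom, with 726 of 20214, had 2. In all these tools 0 rose. At an unadjusted p under 0.05 in edgeR, 1 was higher and 4 were lower, beside 9.58% of all tested genes higher and 8.46% lower. MPK3, a mitogen-activated protein kinase of immune signalling, was at 78.0, 64.4, 67.6 and 63.1 CPM in hta9 hta11 libraries 1 to 4, against 109.9, 93.0, 105.7 and 90.5 CPM in the wild-type libraries. The groups did not overlap (log2 fold change -0.55, SE 0.094, adjusted p = 0.014). RBOHD, the oxidase that makes extracellular reactive oxygen species in immunity, was at 63.8, 71.7, 77.3 and 69.9 CPM in hta9 hta11, against 86.5, 86.1, 102.9 and 90.2 CPM in the wild type (log2 fold change -0.37, SE 0.086, adjusted p = 0.0418). The receptor FLS2 and its partners BAK1 and BIK1 had log2 fold changes of 0.061, -0.058 and -0.074 (adjusted p = 0.844, 0.739 and 0.672), and were named after their values were seen. So were SOBIR1 and CPK28, at -0.39 and -0.61 (adjusted p = 0.0983 and 0.110), and RBOHF, at 0.29 (adjusted p = 0.268). Of the 15, 12 had a negative and 3 a positive log2 fold change.

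The DUF26 domain also occurs in proteins without a kinase, the plasmodesmata-located proteins and the cysteine-rich repeat secretory proteins. Of 41 such relatives and further kinases, 40 were in the table, 27 had no count and 8 were tested. Neither edgeR, DESeq2 nor limma-voom called any of the 8. In edgeR 1 of them was higher and 0 lower at an unadjusted p under 0.05. Over all tested genes these shares were 9.58% and 8.46%. PDLP3, the most abundant, was at 40.3 ± 3.89 CPM in hta9 hta11 and 37.01 ± 2.84 CPM in the wild type, and PDLP2 at 19.5 ± 2.51 CPM in hta9 hta11 and 19.1 ± 2.06 CPM in the wild type (SD, n = 4 each; adjusted p = 0.528 and 0.929).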

How the data were processed

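The authors deposited 1 table of whole-number read counts per gene for the 8 libraries, and 0 of its value columns were left unused. The build TAIR10 and the tools HISAT2 2.2.1, SAMtools 1.17, fastp 0.23.2, limma and DESeq2 are named in the submitters' processing notes. How reads were assigned to genes, by strand or among several matches, is not given in the sources used here, so counts of overlapping or near-identical genes are uncertain. The protocol speaks of fewer replicates than the 4 that the labels list per genotype, and all 8 libraries were used.

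Genotypes came from the labels. Counts were filtered with filterByExpr, scaled with TMM and tested by genotype with edgeR 4.0.16 under R 4.3.3 (quasi-likelihood F test, Benjamini-Hochberg over 20214 genes). Alternatives included upper-quartile and RLE scaling, other count filters, DESeq2 1.42.0, limma-voom (limma 3.58.1), an adjusted p under 0.01, nuclear genes only, a replicate block and libraries left out.

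Positions, exon lengths, exact repeats and upstream sequences came from RefSeq TAIR10.1. Relatives with the DUF26 domain were found by name, leaving out 5 genes matched by an unrelated name. Members, lists and rules were chosen with earlier results of these data known. The rule named members with an unadjusted p under 0.05, the 8 highest per kb, the 4 largest changes that did not pass, neighbours of called members, and called genes of the other lists.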

Additional observations from a re-analysis of the deposited data

Results flagged for a closer look

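In 70 groups of 4 libraries (35 tested members in 2 genotypes), 2 held a library that stood apart from the other 3 by more than Dixon's critical value, where chance gives about 1 in 20. CRK22 was at 17.98 CPM in hta9 hta11 library 1, against 23.9 to 24.5 CPM in the other hta9 hta11 libraries. CRK37 was at 0.647 CPM in wild-type library 3, against 0.266 to 0.320 CPM in the other wild-type libraries.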

How the results depend on the processing

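The 757 genes called became 1505 with DESeq2, 152 at an adjusted p under 0.01 and 208 to 1246 with a library left out. The 3 members that rose became 5 with the replicate block, 6 with DESeq2, 1 at 0.01 and 1 to 4 with a library left out, and the 2 that fell became 4 with DESeq2, 0 at 0.01 and 0 to 3 with a library left out. In the array the 2 that rose became 1 with the stricter filter, limma-voom or 0.01 and 1 to 3 with a library left out, and among dispersed members the 1 that rose became 2 with the block, 4 with DESeq2, 0 at 0.01 and 0 to 1 with a library left out. The dispersed median log2 fold change of 0.353 ran from 0.0496 to 0.425 with a library left out, and was 0.134 with the stricter filter, 0.193 with no filter and 0.190 with DESeq2. The array median of 0.0127 ran from -0.067 to 0.18 with a library left out. DESeq2 added CRK26, CRK28, CRK30, CRK19 and CRK40 to the calls. CRK23 passed under all 18 alternatives. The replicate numbers did not pair the libraries: deviations of same-numbered libraries correlated at 0.403, 0.353, -0.275 and -0.195, and the block gave 847 calls, adding CRK22, CRK26 and CRK30 and losing CRK29. Of 624 values of single members under alternatives, 22 changed sign, 28 lost and 15 gained a call. CRK7 gave -0.16 with the block, -0.0042 with DESeq2 and -0.17 with limma-voom, and CRK16 gave 0.00042 without hta9 hta11 libraries 1 and 3. With a library left out, log2 fold changes ran from -0.076 to 0.017 for CRK3, -0.061 to 0.34 for CRK4, -0.061 to 0.12 for CRK5, -0.023 to 0.49 for CRK6, -0.49 to 0.24 for CRK7, -0.24 to 0.095 for CRK11, -0.31 to 0.067 for CRK14, -0.13 to 0.047 for CRK16, -0.031 to 0.24 for CRK34, -0.014 to 0.85 for CRK38 and -0.12 to 0.021 for CRK42, none of which passed in any of these fits. The cause was not tested. Levels under 1 CPM rest on few counts, which limits CRK8, CRK26, CRK27, CRK31, CRK37 and CRK38.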
